A study of Mus musculus with 8 samples.

Results

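A set of 50 genes had values at least 2-fold lower in macrophages labelled Zc3h12a-/- than in wild-type macrophages at each of 4 times of stimulation with LPS, the lipopolysaccharide of Gram-negative bacteria, which macrophages sense by TLR4. Of 18193 genes, each represented by its brightest probe set with a single gene symbol, 57 had a labelled-knockout minus wild-type log2 value of -1 or less at all 4 times. Collagen genes, Sparc and Bgn were set aside, which removed 7 of the 57 (Col1a1, Col1a2, Col4a2, Col5a2, Col6a1, Col6a2 and Sparc). For comparison, 92 genes were at +1 or more at all 4 times. The genotype differences below chose the genes, so they are a description and carry no test. Whether and how the genes changed with LPS was not used in choosing them, and it was tested.

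The study measured RNA in peritoneal macrophages elicited with thioglycollate, an irritant that recruits monocyte-derived macrophages into the abdominal cavity. The labelled-knockout group had 1 Affymetrix array each for 0 h (no LPS) and for 1, 2 and 4 h of LPS at 100 ng/ml, and the wild-type group had the same 4 arrays. All mice of both groups had received thioglycollate. The labels give no age, sex, strain background or number of mice, and do not say whether the 4 arrays of a genotype came from the same animals, so genotype and animal cannot be told apart. No group had a replicate, and a difference between 2 arrays of 1 time has no test. Values are log2 intensities made by the authors with RMA, and wherever 4 values of a gene are given in a row they are those at 0, 1, 2 and 4 h.

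Zc3h12a encodes Regnase-1, an RNase that macrophages induce after TLR signalling and that cleaves selected mRNAs through stem-loops in their 3' untranslated regions. Macrophages that sense LPS induce cytokines and type I interferon, which in turn induces antiviral genes, and they lower many transcripts of the resting state, among them those for lipid handling.

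The brighter Zc3h12a probe set lay between 6.73 and 8.75 on the labelled-knockout arrays and between 6.12 and 8.87 on the wild-type arrays, so it did not show the deletion. Where it lies relative to the deleted part is not known here, and every direction rests on the label. The background of an array, set at its highest value among 27 bacterial control probe sets, ranged over 2.96 to 3.26, and pairwise correlations over all probe sets lay between 0.933 and 0.988. Macrophage markers were present: the linear values of 17 markers summed to 47740 to 54380 on the labelled-knockout arrays and 49890 to 54240 on the wild-type arrays, with none at background. As a sign of RNA quality, the 3' end of Actb exceeded its 5' end by 3.11, 2.61, 2.52 and 2.30 on the labelled-knockout arrays and 2.64, 2.35, 2.43 and 2.16 on the wild-type arrays. This gap was higher in the labelled knockout at each time. The same gap of Gapdh was 3.31, 2.95, 3.04 and 2.90 on the labelled-knockout arrays and 3.01, 2.99, 3.16 and 2.98 on the wild-type arrays, higher in the labelled knockout at 0 h and lower at the later times. The part of RNA quality in the differences below was not tested.

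The mean genotype difference over the 4 times ran from -5.49 for Hal to -1.20 for Ccn2, with a median of -1.65 over the 50 genes, against -0.04 over all 12540 genes kept by a filter on low values. All 50 genes passed that filter. The difference was -2 or lower in 16 genes and -3 or lower in 4, namely Hal, Gdpd3, Ifi27l2a and Gdf3. The median was much the same at each time, with -1.65, -1.69, -1.81 and -1.70. In 40 of the 50 genes all 4 labelled-knockout values lay below all 4 wild-type values, as they did in 4.01% of the genes kept; the rule used these values, so nothing is read from the count. The 10 genes whose ranges overlapped were Bex1, Ifi44l, Axl, Cnn3, Akr1b8, Cd22, Slc9a9, Pparg, Abcc3 and Ccn2. Under the rule, ranges can overlap only where values moved over time, so that these genes changed with LPS is not a separate result.

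**Figure D1:**
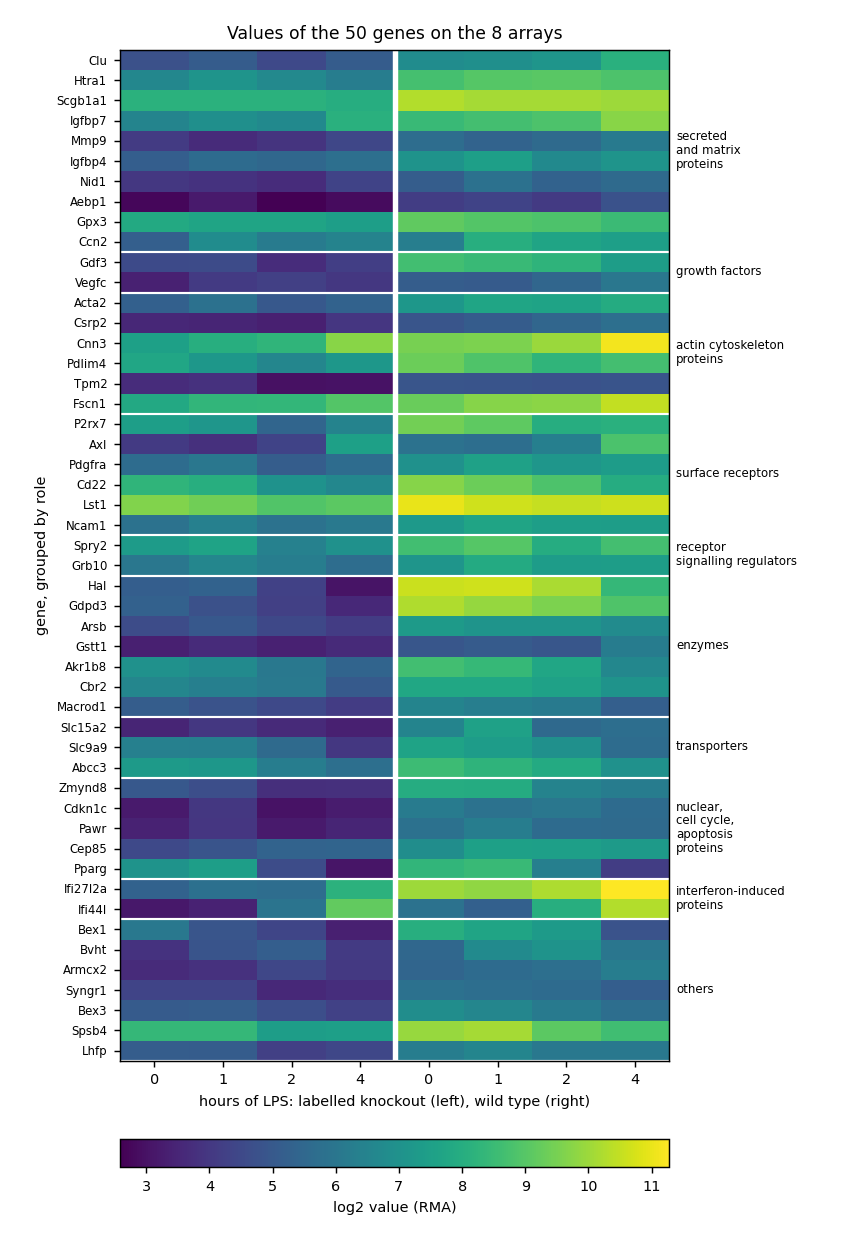
Log2 RMA values of the 50 genes (rows, grouped by role) on the 4 labelled-knockout arrays (left) and the 4 wild-type arrays (right), ordered by hours of LPS, with 1 array per column. Rows are darker on the left at each matched time; Hal had 3.04 in the labelled knockout at 4 h, against 8.37 in wild type.

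The genes nearest the threshold show how narrowly membership was set. Pparg, Tpm2, Ccn2 and Vegfc came closest from inside, with differences at their weakest time of -1.01, -1.02, -1.02 and -1.03. Just outside were Prpf31, Smim4, Cd72 and Hmga2, whose weakest differences were -0.999, -0.998, -0.997 and -0.992. On 8 labelled-knockout values in 5 genes the signal was at or below background, so the difference is a bound there. It was at least 5.20 in size for Hal at 4 h, 2.82 for Cdkn1c at 2 h, 1.00 for Pparg at 4 h, 1.58 and 1.69 for Tpm2 at 2 and 4 h, and 1.22, 0.87 and 1.62 for Aebp1 at 0, 2 and 4 h. No wild-type value of the 50 genes was at background.

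**Figure D2:**
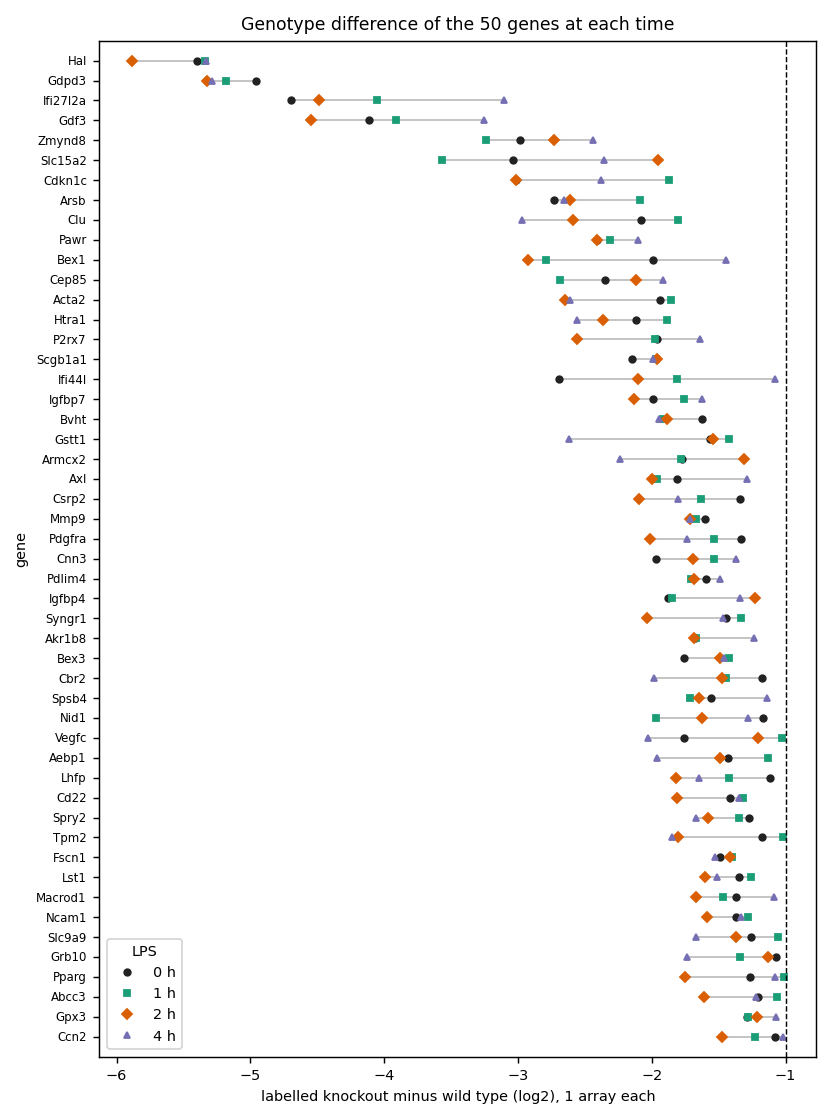
Labelled-knockout minus wild-type log2 difference of each of the 50 genes at 0, 1, 2 and 4 h (symbols, 1 array of each genotype per point), ordered by the mean of the 4; grey lines join the lowest and highest. The dashed line is the threshold of -1, which every point meets by construction, and Hal, Gdpd3, Ifi27l2a and Gdf3 stand apart with means from -5.49 to -3.96.

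Among the 7 enzymes were both genes with the greatest genotype difference. Hal encodes histidine ammonia-lyase, which takes the amino group off histidine and so makes urocanate in the first step of histidine breakdown. It had 5.19, 5.30, 4.28 and 3.04 in labelled-knockout cells, against 10.59, 10.64, 10.16 and 8.37 in wild-type cells, a mean difference of at least 43.8-fold when the 4 h value, which was at background, is held at its bound. Gdpd3, a phosphodiesterase of the glycerophosphodiester family that acts on lysophospholipids, had 5.28, 4.73, 4.23 and 3.59 in labelled-knockout cells, against 10.24, 9.92, 9.56 and 8.88 in wild-type cells. The lowest wild-type value exceeded the highest labelled-knockout value by 3.07 for Hal and 3.59 for Gdpd3. Arsb, the lysosomal sulfatase that removes sulfate from dermatan and chondroitin sulfate, had 4.61, 4.99, 4.46 and 4.13 in labelled-knockout cells, against 7.34, 7.07, 7.07 and 6.78 in wild-type cells. Its groups did not overlap either.

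Akr1b8, an aldo-keto reductase that reduces aldehydes, had 6.98, 6.75, 6.05 and 5.39 in labelled-knockout cells, against 8.66, 8.42, 7.73 and 6.63 in wild-type cells. Both genotypes declined with time, so the last wild-type value lay below the first 2 labelled-knockout values. The other enzymes were Gstt1 (a glutathione S-transferase), Cbr2 (a carbonyl reductase) and Macrod1 (which removes ADP-ribose from proteins), with mean differences of -1.79, -1.52 and -1.40. Gstt1 moved apart at 4 h: it had 3.63 in labelled-knockout cells and 6.25 in wild-type cells there, a difference of -2.62, against -1.56 at 0 h.

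Relatives of these enzymes did not share the size of the difference. Uroc1, which acts after Hal and was the 1 other gene of histidine breakdown kept, averaged 3.11 in labelled-knockout cells and 3.15 in wild-type cells, near background. By limma with time as a block, where 4.75% of all genes tested were higher and 8.72% lower in the labelled knockout, 1 of 4 other glycerophosphodiesterases was lower (Gdpd1, difference -0.46, SE 0.09, adjusted p = 0.0236). Of 8 other sulfatases and their activators, Arsk (-0.96, SE 0.08, adjusted p = 0.00144) and Galns (-0.65, SE 0.10, adjusted p = 0.0124) were lower and none was higher.

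The window of 250 bases before the start of transcription was taken from RefSeq (assembly GRCm38.p6) for 38 of the 50 genes. It is given for Hal, which had the greatest genotype difference, for Ifi44l, which had the greatest LPS response, and for Gstt1, the 1 gene in whose window the core of the interferon-stimulated response element was found. That motif was searched on both strands as GAAA, any 2 bases and GAAA, and capitals mark the match, which lies on the reverse strand and begins at position -185 from the start.
Hal, chr10:93488518-93488767, plus strand: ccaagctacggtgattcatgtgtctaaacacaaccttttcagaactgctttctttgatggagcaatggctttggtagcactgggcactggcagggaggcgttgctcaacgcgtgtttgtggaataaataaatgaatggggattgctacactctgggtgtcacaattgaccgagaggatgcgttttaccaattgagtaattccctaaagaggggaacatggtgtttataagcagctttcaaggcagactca
Ifi44l, chr3:151762892-151763141, minus strand: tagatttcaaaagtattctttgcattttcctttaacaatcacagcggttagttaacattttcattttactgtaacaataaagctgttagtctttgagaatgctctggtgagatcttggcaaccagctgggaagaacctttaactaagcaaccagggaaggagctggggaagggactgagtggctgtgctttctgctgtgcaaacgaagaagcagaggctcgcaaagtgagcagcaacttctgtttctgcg
Gstt1, chr10:75797732-75797981, minus strand: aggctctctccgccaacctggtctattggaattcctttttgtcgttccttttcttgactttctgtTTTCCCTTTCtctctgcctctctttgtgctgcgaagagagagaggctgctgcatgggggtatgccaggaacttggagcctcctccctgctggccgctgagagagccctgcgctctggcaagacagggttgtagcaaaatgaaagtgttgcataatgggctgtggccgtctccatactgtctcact

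The interferon element was thus in 1 of 38 windows, against 3.04% of the windows of 27025 genes. The 12 genes without a window were Ifi27l2a, Gdf3, Cdkn1c, Clu, Scgb1a1, Bvht, Csrp2, Mmp9, Lst1, Ncam1, Abcc3 and Ccn2. These were not searched, so of the genes for interferon-induced proteins only Ifi44l was. Where a gene had several windows, as Zmynd8 and Pparg did, only the first listed was searched. The CArG box of serum response factor was searched only in its strict form, with nothing but A or T between CC and GG. That form was in 1 window, that of Cbr2, against 1.40% of all. Looser forms with another base there, such as ccctatatgg in the Acta2 window, were not counted. The kappa B motif (GGG, any 2 bases and TTTCC) and the PU.1 motif GAGGAAGT were in none of the 38, against 1.40% and 2.44% of all. These matches describe letters in a short window only.

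The interferon-induced proteins numbered 2. Ifi27l2a, a small hydrophobic protein induced by type I interferon, had 5.32, 5.79, 5.71 and 8.17 in labelled-knockout cells, against 10.02, 9.84, 10.20 and 11.28 in wild-type cells. All wild-type values were above all labelled-knockout values, and the difference was -4.70 at 0 h and -3.11 at 4 h. Ifi44l, whose product is induced in antiviral responses, had 3.15, 3.43, 5.93 and 9.20 in labelled-knockout cells, against 5.85, 5.24, 8.04 and 10.28 in wild-type cells. Its groups overlapped, and its difference was -2.69 at 0 h and -1.08 at 4 h. With Gstt1, these were the 3 genes whose difference moved by 1 log2 unit or more between 0 and 4 h; over all 50 it was smaller at 4 h in 27 and larger in 23. These shifts were not tested.

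Of 30 other interferon-stimulated genes in a fixed list, 6 were lower in the labelled knockout by limma and none was higher. Of all genes tested 8.72% were lower and 4.75% higher. Oasl2, of the oligoadenylate synthetase family, averaged 7.67 in labelled-knockout cells and 8.62 in wild-type cells (difference -0.95, SE 0.12, adjusted p = 0.00618). The other 5 were Ifit3, Oas1a, Oas3, Zbp1 and Trim30a, with differences of -0.63, -0.68, -0.54, -0.57 and -0.61. The median of the 30 was -0.15. Ifi27l2b, a neighbour in the Ifi27 family, was lower too (-0.54, SE 0.12, adjusted p = 0.0363). Its labelled-knockout values were near background, and below it at 2 and 4 h. Ifi27 itself averaged 9.05 in labelled-knockout cells and 9.29 in wild-type cells and did not pass.

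The growth factors were Gdf3 and Vegfc. Gdf3, a ligand of the TGF-beta family that signals through activin-type receptors, had 4.53, 4.56, 3.68 and 4.19 in labelled-knockout cells, against 8.64, 8.47, 8.22 and 7.44 in wild-type cells. Its groups were separated by 2.88. Vegfc, which drives lymphatic vessel growth, averaged 3.92 in labelled-knockout cells and 5.43 in wild-type cells. Among 6 other TGF-beta family ligands kept, Tgfb2 (difference 2.48, SE 0.20, adjusted p = 0.00137) and Inhba (0.63, SE 0.10, adjusted p = 0.0111) were higher in the labelled knockout and none was lower. Of 16 receptors and Smads, Acvr1b, a type I activin receptor, was lower (-0.51, SE 0.08, adjusted p = 0.0106).

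The 5 genes for nuclear, cell cycle and apoptosis proteins included Zmynd8, a chromatin reader that binds acetylated histones. It had 4.98, 4.68, 3.75 and 3.78 in labelled-knockout cells, against 7.97, 7.92, 6.48 and 6.22 in wild-type cells. A second Zmynd8 probe set that was also above background did not share this, with 6.67, 6.42, 4.84 and 4.53 in labelled-knockout cells and 6.68, 6.29, 4.66 and 4.92 in wild-type cells. The gene's membership therefore rests on 1 of its probe sets. Cdkn1c, the imprinted cyclin-dependent kinase inhibitor p57, had 3.20, 3.98, 3.01 and 3.23 in labelled-knockout cells, against 6.22, 5.85, 6.03 and 5.61 in wild-type cells. Pawr, a pro-apoptotic protein, had 3.42, 3.96, 3.22 and 3.47 in labelled-knockout cells, against 5.83, 6.27, 5.64 and 5.58 in wild-type cells. Both sat close to background in the labelled knockout and well above it in wild type.

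Cep85, a centrosomal protein, had 4.51, 4.84, 5.37 and 5.40 in labelled-knockout cells, against 6.85, 7.52, 7.49 and 7.32 in wild-type cells. Its other, dimmer probe set ran the opposite way, with 3.53, 3.93, 4.58 and 3.93 in labelled-knockout cells and 2.74, 3.56, 3.84 and 3.25 in wild-type cells. Pparg, the nuclear receptor that drives lipid uptake and storage genes, had 7.05, 7.46, 4.60 and 3.09 in labelled-knockout cells, against 8.32, 8.48, 6.35 and 4.17 in wild-type cells. Its time course spanned more than its genotype difference. Of 6 other cyclin-dependent kinase inhibitors, Cdkn2a was higher (1.15, SE 0.12, adjusted p = 0.00331) and Cdkn1b lower (-0.66, SE 0.08, adjusted p = 0.00618). Of 14 other genes of PPAR-gamma and lipid handling, Nr1h3, which encodes the oxysterol receptor LXR-alpha, was lower (-1.14, SE 0.20, adjusted p = 0.019) and none was higher. Of 10 other imprinted genes, 0 passed the genotype test by limma.

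The transporters were Slc15a2, Slc9a9 and Abcc3. Slc15a2, the proton-coupled peptide transporter PEPT2, had 3.47, 4.01, 3.61 and 3.35 in labelled-knockout cells, against 6.52, 7.58, 5.57 and 5.71 in wild-type cells. The difference was -3.57 at 1 h, where wild type was highest, and -1.95 at 2 h. None of 4 other SLC15 transporters passed the genotype test. Slc9a9, an endosomal sodium-proton exchanger, had 6.38, 6.34, 5.59 and 3.99 in labelled-knockout cells, against 7.64, 7.40, 6.95 and 5.66 in wild-type cells. Abcc3, an efflux pump for organic anions, averaged 6.64 in labelled-knockout cells and 7.91 in wild-type cells.

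Of the 6 surface receptors, P2rx7, the ATP-gated channel upstream of the NLRP3 inflammasome, had 7.46, 7.14, 5.43 and 6.46 in labelled-knockout cells, against 9.43, 9.12, 7.99 and 8.11 in wild-type cells. A second P2rx7 probe set above background had a mean difference of -0.45 only. Axl, a receptor tyrosine kinase that binds dying cells through Gas6 and restrains TLR signalling, had 4.05, 3.78, 4.33 and 7.51 in labelled-knockout cells, against 5.86, 5.74, 6.33 and 8.80 in wild-type cells. Cd22, an inhibitory sialic acid-binding receptor best known from B cells, had 8.27, 8.02, 7.03 and 6.62 in labelled-knockout cells, against 9.69, 9.34, 8.84 and 7.97 in wild-type cells. The B cell markers Pax5 and Cr2 were at background on all 8 arrays. The linear values of 8 B cell markers summed to 488 to 758 on the labelled-knockout arrays and 107 to 116 on the wild-type arrays. Of 4 B cell markers tested by limma only Ighm passed, higher in the labelled knockout. The part of B cells in the Cd22 values was not tested.

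Pdgfra, the PDGF receptor found on fibroblasts, had 5.65, 6.03, 5.15 and 5.67 in labelled-knockout cells, against 6.98, 7.57, 7.16 and 7.41 in wild-type cells. Lst1, a transmembrane protein of myeloid cells, was the brightest of the 50 genes in the labelled knockout at 0 h, and averaged 9.26 in labelled-knockout cells and 10.69 in wild-type cells. Ncam1, the neural cell adhesion molecule, averaged 6.06 in labelled-knockout cells and 7.45 in wild-type cells. The 2 regulators of receptor signalling were Grb10 and Spry2. Grb10, an imprinted adaptor that dampens insulin receptor signalling, had 6.04, 6.57, 6.26 and 5.68 in labelled-knockout cells, against 7.12, 7.92, 7.39 and 7.42 in wild-type cells. Spry2, an inhibitor of receptor tyrosine kinase signalling, had a mean difference of -1.47.

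The 10 secreted and matrix proteins had mean differences from -2.36 (Clu) to -1.20 (Ccn2). Clu, the extracellular chaperone clusterin, had 4.74, 5.10, 4.52 and 5.13 in labelled-knockout cells, against 6.82, 6.91, 7.11 and 8.10 in wild-type cells. Htra1, a secreted serine protease, had 6.6, 7.09, 6.69 and 6.29 in labelled-knockout cells, against 8.71, 8.98, 9.05 and 8.84 in wild-type cells. Scgb1a1, a secretoglobin best known from the airway epithelium, had 8.14, 8.15, 8.13 and 8.01 in labelled-knockout cells, against 10.29, 10.12, 10.09 and 9.998 in wild-type cells. It was almost level over time in both genotypes.

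Igfbp7 and Igfbp4 bind insulin-like growth factors. Igfbp7 had 6.5, 6.92, 6.72 and 8.12 in labelled-knockout cells, against 8.49, 8.68, 8.85 and 9.74 in wild-type cells. Igfbp4 had 5.17, 5.64, 5.48 and 5.76 in labelled-knockout cells, against 7.05, 7.49, 6.71 and 7.10 in wild-type cells. Ccn2, connective tissue growth factor, had 5.22, 6.80, 6.2 and 6.48 in labelled-knockout cells, against 6.30, 8.03, 7.68 and 7.50 in wild-type cells. The others were Mmp9 (a gelatinase), Nid1 (a basement membrane protein), Aebp1 (a collagen-binding protein) and Gpx3 (a secreted glutathione peroxidase), with mean differences of -1.68, -1.51, -1.50 and -1.21.

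The 6 proteins of the actin cytoskeleton had mean differences from -2.27 to -1.46. Acta2, smooth muscle actin, had 5.26, 5.83, 4.99 and 5.33 in labelled-knockout cells, against 7.20, 7.69, 7.64 and 7.94 in wild-type cells. Cnn3, a calponin, had 7.54, 8.02, 8.26 and 9.75 in labelled-knockout cells, against 9.51, 9.56, 9.96 and 11.12 in wild-type cells. Pdlim4, a protein of actin fibres with LIM and PDZ domains, had 7.73, 7.19, 6.58 and 7.18 in labelled-knockout cells, against 9.33, 8.90, 8.26 and 8.67 in wild-type cells. Fscn1, fascin, which bundles actin filaments, had 7.82, 8.30, 8.35 and 8.95 in labelled-knockout cells, against 9.30, 9.71, 9.76 and 10.47 in wild-type cells. Csrp2 and the tropomyosin gene Tpm2 were dimmer, with means of 3.58 and 3.38 in labelled-knockout cells and 5.30 and 4.85 in wild-type cells.

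Markers of stromal cells moved with these 2 groups of genes. Of 16 stromal markers outside the 50 genes, limma found 10 lower in the labelled knockout (Pdgfrb, Dcn, Fstl1, Serpinh1, Pcolce, Col1a1, Col1a2, Col3a1, Sparc and Bgn) and Thy1 higher. The shares over all genes tested were 8.72% lower and 4.75% higher. Of the 10, Col1a1, Col1a2 and Sparc met the rule themselves and were left out by name. Dcn, decorin, averaged 4.33 in labelled-knockout cells and 5.23 in wild-type cells, and Col3a1 averaged 5.10 in labelled-knockout cells and 6.14 in wild-type cells. The linear values of 22 stromal markers summed to 11500 to 13180 on the labelled-knockout arrays and 12640 to 15830 on the wild-type arrays, and none was at background on all 8. Of 4 mesothelial markers tested only Wt1 passed, and it was lower by limma (-1.20, SE 0.11, adjusted p = 0.00238). Msln, Krt18, Krt19, Lrrn4 and Muc16 were at background on all 8 arrays. The sums of 12 mesothelial markers were 87.5 to 94.6 in the labelled knockout and 100.6 to 104.6 in wild type. The part of these cell types in the results was not tested, and fewer cells of a type and less RNA per cell cannot be told apart in bulk RNA.

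Some markers of other cell types differed too, where 4.75% of all genes tested were higher and 8.72% lower in the labelled knockout. Of 11 markers of resident peritoneal macrophages 10 were higher in the labelled knockout, with sums of 13620 to 14800 against 3178 to 3887 in wild type. Of 17 general macrophage markers, Adgre1 and Itgam were higher and Fcgr1 lower. Of 15 genes of alternative activation other than Pparg, 9 were higher (Retnla, Chil3, Arg1, Mrc1, Ccl24, Ccl17, Mgl2, Clec7a and Socs2) and Stab1 and Folr2 lower, so the lower value of Pparg ran against most of that list. Of 7 mast cell and basophil markers tested, Cpa3 and Cma1 were lower. Of 4 B cell markers Ighm was higher, of 5 T and NK cell markers Cd3e, and of 5 neutrophil markers S100a9 and Mmp8. The other markers of these lists did not pass. The median difference was 0.06 for the B cell list and 0.02 for the T and NK cell list. Over all fixed lists 28 genes outside the 50 were higher and 30 lower. The count of lower genes was 18 without either 0 h array or either 2 h array.

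The remaining 7 genes had various roles. Bex1 and Bex3, small X-linked proteins of the same family, lay 3 coding genes apart. Bex1 had 6.05, 4.87, 4.39 and 3.36 in labelled-knockout cells, against 8.05, 7.65, 7.31 and 4.80 in wild-type cells. Bex3 had 5.08, 5.16, 4.69 and 4.28 in labelled-knockout cells, against 6.83, 6.58, 6.18 and 5.74 in wild-type cells. Of 3 other genes of the Bex and Tceal families, Tceal9 was lower (-0.46, SE 0.08, adjusted p = 0.018). Bvht, the long non-coding RNA Braveheart, known from cardiac differentiation in mouse, had 3.86, 4.83, 5.17 and 4.05 in labelled-knockout cells, against 5.48, 6.75, 7.05 and 5.99 in wild-type cells. Armcx2, Syngr1 (a vesicle membrane protein), Spsb4 (a substrate adaptor of a ubiquitin ligase) and Lhfp had mean differences of -1.78, -1.57, -1.52 and -1.50.

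The 50 genes lay on 19 chromosomes. Cep85 and Tpm2 were on that of Zc3h12a, with 147 and 600 coding genes between; this is 4.0% of the 50 genes, against 5.95% of the genes tested. Besides Bex1 and Bex3, Pawr and Csrp2 had 4 coding genes between them and Pdlim4 and Gpx3 had 10.

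Other probe sets of the same genes were read beside the chosen ones. The rule used 1 probe set per gene, and 31 of the genes had more. Of their 68 other probe sets, 32, in 23 genes, were above background on all 4 arrays of at least 1 genotype. Of these 32, 23 were lower in the labelled knockout at all 4 times, 2 were higher at all 4 times and 7 were mixed. The same shares over all probe sets were not taken, so these counts are a description only. Some of the 23 differed little, such as those of Pdgfra, Cd22 and Mmp9, with mean differences of -0.20, -0.23 and -0.52. The 10 at -1 or less at each time were probe sets of Arsb, Clu, Cnn3, Fscn1, Gdf3, Htra1, Ifi44l and Spsb4. The 2 that ran the opposite way were those of Cep85 and Pawr, with mean differences of 0.65 and 0.26. The mixed ones belonged to Tpm2 (0.35), Zmynd8 (-0.02), Ifi44l (-0.15), Vegfc (-0.23), P2rx7 (-0.45), Igfbp7 (-0.51) and Cnn3 (-0.84). Probe sets of 1 gene can match different transcripts, and the match was not examined here.

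The second question was how these genes responded to LPS. Changes were tested with limma on all 8 arrays with genotype as a block, and the comparisons at 1, 2 and 4 h share the 0 h arrays. At 4 h 11 of the 50 genes were higher and 18 lower, which is 22.0% and 36.0%, against 14.4% and 29.4% of all genes tested. At 2 h 6 were higher and 17 lower (12.0% and 34.0%, against 12.0% and 29.8%). At 1 h 3 were higher and 1 lower (against 3.85% and 6.62%). These shares lie near those of all genes, so the counts say little that is particular to the 50 genes. Their median change was 0.10, -0.19 and -0.19 at 1, 2 and 4 h, against -0.09, -0.16 and -0.12 over all genes. The balance of directions depended on the scaling: at 4 h 16 were higher and 16 lower after cyclic loess, and 17 higher and 15 lower after centring on housekeeping genes, which moved the median of all genes to 0.14. At 2 h the counts were 9 higher and 13 lower after cyclic loess and 10 higher and 11 lower after housekeeping centring, and at 1 h 5 higher and 0 lower after either. With a minimum change of 2-fold, 7 were higher and 13 lower at 4 h.

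**Figure D3:**
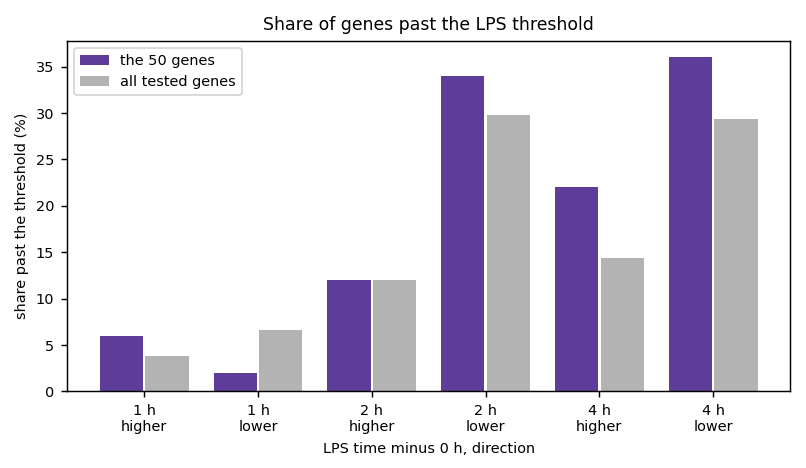
Share of the 50 genes (purple, left bar of each pair) and of all 12540 genes tested (grey, right bar) past an adjusted p of 0.05 at each LPS time and direction, in percent. The pairs differ by less than 8 percentage points, with 36.0% against 29.4% for genes lower at 4 h.

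The responses themselves were large in some genes. Over all 50 genes the 2 genotypes' changes had opposite signs in 15 at 1 h, 9 at 2 h and 5 at 4 h; none of these passed, and the test takes disagreement between genotypes as its error. Ifi44l rose most, by 5.24 at 4 h (SE 0.34, adjusted p = 8.19e-05), with 6.04 in labelled-knockout cells and 4.43 in wild-type cells. It had risen by 2.48 at 2 h (SE 0.34, adjusted p = 0.00219). Ifi27l2a rose by 2.06 at 4 h (SE 0.36, adjusted p = 0.00438) but not detectably at 2 h, where its change was 0.29. All 30 genes of the interferon-stimulated list rose at 4 h, with a median of 4.44. Axl rose late as well, by 3.20 at 4 h (SE 0.19, adjusted p = 5.59e-05), after 0.37 at 2 h.

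At 4 h 3 of the 6 genes of the actin cytoskeleton and 4 of the 10 of secreted and matrix proteins were higher, against 14.4% of all genes tested; these role groups were drawn up after the values were known. Cnn3 rose by 1.91 (SE 0.16, adjusted p = 0.000198), Fscn1 by 1.15 (SE 0.10, adjusted p = 0.000281) and Igfbp7 by 1.44 (SE 0.15, adjusted p = 0.000496). Ccn2 passed at all 3 times, higher by 1.65 at 1 h (SE 0.14, adjusted p = 0.00115), 1.17 at 2 h and 1.23 at 4 h. Bvht was higher at 1 h (1.12, SE 0.12, adjusted p = 0.00316) and 2 h (1.44, SE 0.12, adjusted p = 0.000369) and did not pass at 4 h, where its change was 0.35. Without probe sets that may cross-hybridise it was read by another probe set and passed at neither time (1.08, adjusted p = 0.134, and 0.80, adjusted p = 0.136). Smaller increases at 4 h were those of Clu (0.83), Cep85 (0.68), Csrp2 (0.64) and Mmp9 (0.41), each of which lost its call without some 1 array. Of 16 stromal markers outside the 50 genes, 4 were higher at 4 h and none lower.

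Pparg fell most, by 2.21 at 2 h (SE 0.19, adjusted p = 0.000385) and by 4.05 at 4 h (SE 0.19, adjusted p = 2.68e-05); its labelled-knockout value at 4 h was at background. Of 14 other genes of PPAR-gamma and lipid handling, 9 were lower at 4 h and none higher, with a median of -0.54. Hal did not change detectably at 1 h (0.09) and fell by 2.18 at 4 h (SE 0.16, adjusted p = 0.000137), in labelled-knockout cells to background. Gdpd3 fell by 1.53 (SE 0.13, adjusted p = 0.000205) and Akr1b8 by 1.81 (SE 0.15, adjusted p = 0.000185). With Cbr2 (-1.12) and Macrod1 (-1.16), 5 of the 7 enzymes, a group likewise drawn up afterwards, were lower at 4 h, against 29.4% of all genes tested.

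**Figure D4:**
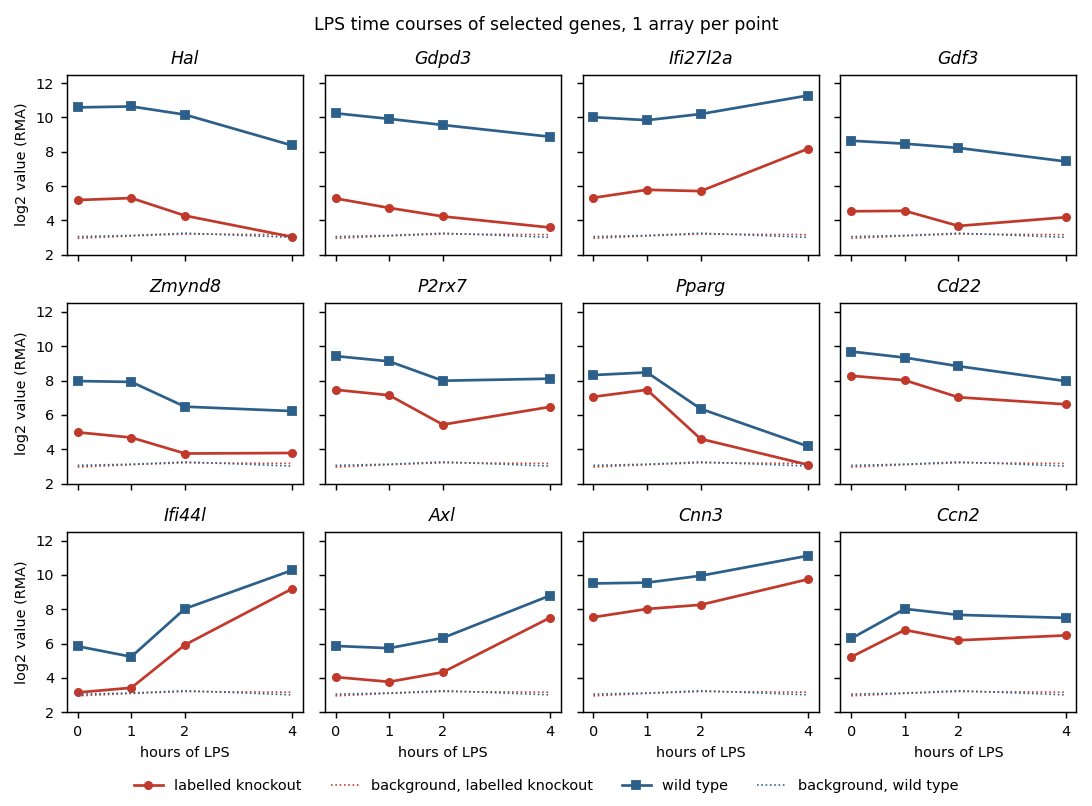
Log2 RMA values of 12 genes against hours of LPS in labelled-knockout (red circles) and wild-type cells (blue squares), 1 array per point, with each array's background dotted. The wild-type line lies above the labelled-knockout line throughout; Pparg and Hal decline to background in labelled-knockout cells at 4 h, and Ifi44l and Axl climb in both genotypes.

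Bex1 fell by 2.97 at 4 h (SE 0.36, adjusted p = 0.000878) and Bex3 by 0.94 (SE 0.12, adjusted p = 0.00135). Slc9a9 fell by 2.19 (SE 0.16, adjusted p = 0.000123) and Abcc3 by 1.56 (SE 0.15, adjusted p = 0.000378), while the third transporter, Slc15a2, had a change of -0.46 that did not pass. The receptors Cd22 (-1.69, SE 0.15, adjusted p = 0.000256), P2rx7 (-1.16, SE 0.21, adjusted p = 0.00522) and Lst1 (-0.45, SE 0.13, adjusted p = 0.0279) were lower. P2rx7 was lowest at 2 h, with a change of -1.73. Zmynd8 fell by 1.48 at 4 h (SE 0.20, adjusted p = 0.00135), and its second probe set also had lower values at 4 h than at 0 h in both genotypes.

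Pdlim4 was lower at 2 h (-1.11, SE 0.11, adjusted p = 0.000686) and at 4 h (-0.61, SE 0.11, adjusted p = 0.00547), against the direction of the other actin genes that passed. Spsb4 (-1.11), Syngr1 (-0.63) and Gpx3 (-0.54) completed the 18 genes lower at 4 h. Spry2 (-0.83) and Lhfp (-0.56) passed at 2 h, with changes of -0.18 and -0.47 at 4 h that did not. A further 18 genes passed at no time. They were Gdf3, Slc15a2, Cdkn1c, Arsb, Pawr, Acta2, Htra1, Scgb1a1, Gstt1, Armcx2, Pdgfra, Igfbp4, Nid1, Vegfc, Aebp1, Tpm2, Ncam1 and Grb10. A change that missed the threshold was not shown to be absent.

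**Figure D5:**
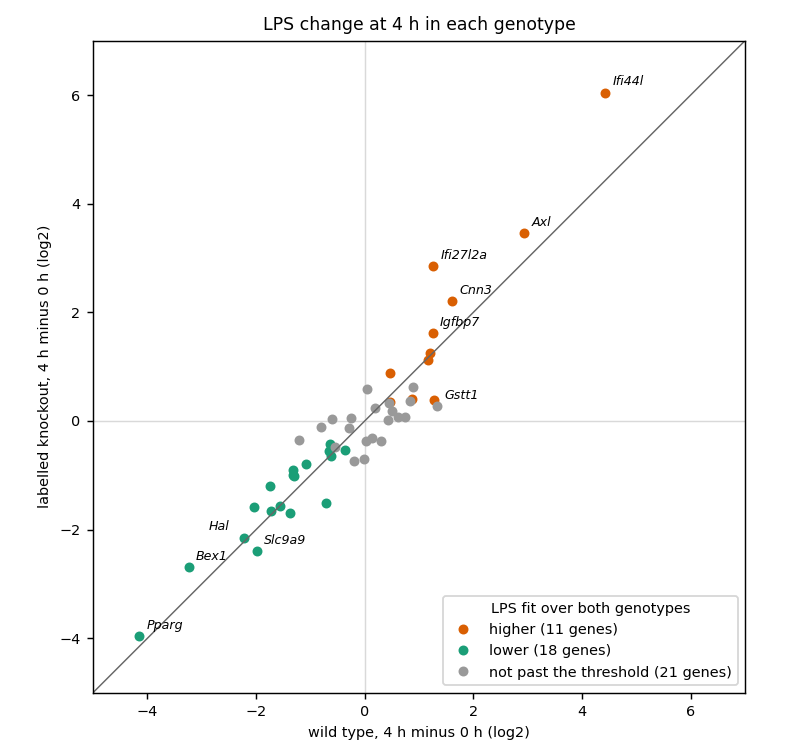
LPS change at 4 h (log2, 4 h minus 0 h) of the 50 genes in labelled-knockout cells (vertical axis) against wild-type cells (horizontal axis), 1 array per value, coloured by the limma call over both genotypes. The 29 genes that passed lie in the lower left or upper right, and Ifi44l (6.04 in labelled-knockout cells, 4.43 in wild-type cells) and Ifi27l2a (2.85 in labelled-knockout cells, 1.26 in wild-type cells) sit above the line of equal change.

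Leaving out 1 array at a time tested how far single arrays carried these calls. All 8 such fits kept 22 of the 29 calls at 4 h, 13 of 23 at 2 h and 2 of 4 at 1 h. At 1 h the calls of Fscn1 (0.45) and Pdlim4 (-0.49) were lost in all 8 fits, with adjusted p up to 0.22 and 0.211. At 4 h the calls of Cep85 were lost without the labelled-knockout 0 or 4 h array or the wild-type 0 h array (adjusted p up to 0.179). Those of Lst1, Mmp9 and Syngr1 were each lost without any 1 of the 4 arrays at 0 and 4 h (up to 0.155, 0.127 and 0.173). Gpx3 was lost without the wild-type 0 or 4 h array (up to 0.0708), Csrp2 without the labelled-knockout 4 h or wild-type 0 or 4 h array (up to 0.214), and Clu without the labelled-knockout 0 or 2 h or wild-type 0, 2 or 4 h array (up to 0.286). At 2 h the calls of Lst1, Cnn3, Fscn1, Hal, Slc9a9, Cep85, Bex1, Bex3, Lhfp and Macrod1 were each lost without at least 3 of the arrays, with adjusted p up to 0.276. Other processing also ended some of these 4 h calls: Lst1 and Syngr1 did not pass after either scaling (adjusted p up to 0.225 and 0.115), Gpx3 after housekeeping centring (0.0705), Clu without the filter on low values (0.0581) and Mmp9 with a trended, robust variance (0.0942). At 2 h Bex1, Bex3, Lhfp and Macrod1 did not pass after either scaling (adjusted p up to 0.0807, 0.148, 0.216 and 0.274), nor Hal (0.0681) and Lst1 (0.0799) after housekeeping centring, nor Fscn1 (0.265) and Slc9a9 (0.263) on the mean of a gene's probe sets, nor Cnn3 (0.16) without probe sets that may cross-hybridise. At 1 h Pdlim4 did not pass after either scaling (up to 0.12), and Fscn1 did not pass on the mean of its probe sets (0.192). No call of the 50 genes changed sign under any alternative run.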

How the data were processed

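RNA from 8 samples was measured on 1 Affymetrix array each. The authors deposited log2 values of 45101 probe sets, computed by RMA per the submitters' processing notes, which do not name a version here. RMA makes the arrays' distributions alike, so a change in total mRNA would not be seen. Gene symbols came from GEO's platform annotation, with 1 single-symbol probe set of highest mean per gene. A gene was tested if at least 2 arrays reached 3.16, the table's overall median (12540 of 18193).

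An additive fit of genotype and time in limma 3.58.1 (R 4.3.3; lmFit, eBayes; 3 residual degrees of freedom) gave LPS changes and, for genes outside the set, genotype differences. Its error is the change of the genotype difference over time, which the rule for the genes also touches. The spread between animals is not measured, so the p-values for genotype speak for these arrays only. P-values were adjusted by Benjamini-Hochberg over all genes tested, with a threshold of 0.05; errors are moderated standard errors (SE). Precision is limited by the number of arrays. The genes, lists and background rule were chosen with earlier results of these data known. Roles were assigned after the genes were known.

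Every gene of the set is named; all 8 values are given for the 16 of most negative mean difference, the 6 of greatest LPS change each way at each time among those past the threshold, and those on fixed lists. The 4 genes nearest the threshold on each side and the fixed-list genes past the genotype test are named too. In 10 simulated draws of the 12540 genes at 4 h, with variances from limma's fitted prior, 60 to 79 of 100 genes changed by 1 log2 unit and 92 to 99 of 100 changed by 2 were recovered, with 1.90% to 8.24% of calls false. With limma's moderated variances these were 86 to 95, 99 to 100, and 2.53% to 12.0%. Only 100 genes of each size were changed in a draw, whereas 1809 genes were higher and 3689 lower at 4 h in the data. The simulated shares therefore need not hold for the reported calls. Alternatives were other scalings, filters, probe set choices, variance settings, a 2-fold minimum, no genotype block and leaving out each array.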

Additional observations from a re-analysis of the deposited data

How the results depend on the processing

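Of 56 LPS calls of the 50 genes, 37 were kept in all 8 fits without 1 array. Under every other alternative except the 2-fold minimum and the fit without genotype 38 were kept, and 35 under both. None reversed. Without probe sets that may cross-hybridise 39 calls were kept and 5 lost. The remaining calls, of genes with no tested value there, could not fail that setting and may count among the 38 and 35. In the order higher and lower, with 3 and 1 called at 1 h, 6 and 17 at 2 h and 11 and 18 at 4 h as reported, the counts that moved by over 1.5 times were as follows. At 1 h they were 5 and 0 after cyclic loess and 5 and 0 after housekeeping centring. With the filter at the 75th percentile they were 5 and 2, of 49 genes kept. Without probe sets that may cross-hybridise they were 1 and 0, of only 37 genes kept. With the 2-fold minimum 0 were lower. After housekeeping centring they were 10 and 11 at 2 h and 17 higher at 4 h. With the 2-fold minimum they were 3 and 6 at 2 h and 7 higher at 4 h. Without genotype as a block (no replicate block) 0 passed in either direction at 1 h and at 2 h and 1 in each direction at 4 h, since the spread then holds the genotype difference.

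Over all genes, 483 were higher and 830 lower at 1 h, 1499 and 3740 at 2 h, and 1809 and 3689 at 4 h. At 1 h 540 were lower after cyclic loess and 511 after housekeeping centring, the 2-fold minimum gave 301 higher and 241 lower, and no block gave 301 and 313. At 2 h housekeeping centring gave 2832 higher and 2391 lower, the 2-fold minimum 693 and 1332, and no block 2375 lower. At 4 h housekeeping centring gave 3094 higher, and the 2-fold minimum 961 higher and 1609 lower. For the genotype test of the fixed lists, a trended, robust variance gave 49 lower in all and 5 macrophage markers lower, against 30 and 1. The rule found 45 genes after cyclic loess, all of them among the 50, but 30 on the mean of a gene's probe sets, 27 of them among the 50. Without probe sets that may cross-hybridise it found 34, only 32 of them among the 50. After housekeeping centring it found 59, which held all 50.

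Without 1 array, the 50 genes gave 2 to 3 higher and 0 lower at 1 h, 3 to 7 and 10 to 17 at 2 h, and 7 to 12 and 15 to 19 at 4 h. All genes gave 289 to 435 higher and 165 to 651 lower at 1 h, 943 to 1499 and 2198 to 3749 at 2 h, and 1340 to 1783 and 2598 to 3642 at 4 h. The fixed lists gave 22 to 30 higher and 18 to 25 lower, stromal markers 0 to 1 and 8 to 9, and macrophage markers 1 to 2 and 1. Most of the lowest counts came without a 0 h array. The cause of these shifts was not tested. With 1 array a group, no difference at a single time could be tested, and values near background bound the differences of 5 genes.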
